A study of Mus musculus with 3 samples.

Results

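Thyroid hormone signalling was described across heart development through 9 genes. They were the nuclear receptors Thra and Thrb, their partners Rxra, Rxrb and Rxrg, the deiodinases Dio1 and Dio2, the transporter Slc16a10 and the target gene Klf9. The genes were chosen by name in the deposited transcript annotation, and 10 of the 48626 loci in the expression table carry these names. RNA was taken from the heart ventricle of C57BL/6 mice at E10.5 and E13.5, where E counts days of embryonic development, and from 8 weeks-old adults. No allele or agent is given for any of the 3 groups. Each stage has 1 library. Differences therefore have no replicate check, and p-values are left out. The sources used here do not say how many hearts went into a library.

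The thyroid secretes mainly the prohormone T4, which carriers in the cell membrane bring into cells. Deiodinases of type 1 and type 2 remove an iodine from T4 to give the active hormone T3, and type 3 inactivates both. T3 binds receptors that sit on DNA together with a retinoid X receptor (RXR), often at repeats of the hexamer AGGTCA. Without hormone these pairs hold corepressors, and with hormone they recruit coactivators. In the mammalian heart the hormone acts on contraction, calcium handling and metabolism, and its level in blood rises around birth.

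Between the embryonic and the adult ventricle 3 of these genes differed greatly, namely Thrb, Rxrg and Klf9, and all were higher in the adult. Thra, Rxra and Slc16a10 were present in all 3 libraries and differed less. As deposited they differed by at most 1.31-fold, 1.72-fold and 1.61-fold in turn, and the size of the Slc16a10 difference depends on the scaling. Rxrb was lowest in the adult. Dio2 was under 1 FPKM in every library and Dio1 was listed at 0 in all of them. FPKM is the number of fragments per kb of exon, scaled to the mapped fragments of the library, so that levels can be set side by side between genes of different length. A difference between stages is given as a difference of log2(FPKM + 1), and a gene is called past the fold at a difference of 1 or more in size. Intervals in parentheses are 95% counting intervals from an approximate number of fragments behind each value. They cover counting error only and leave out the variation between animals.

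**Figure D1:**
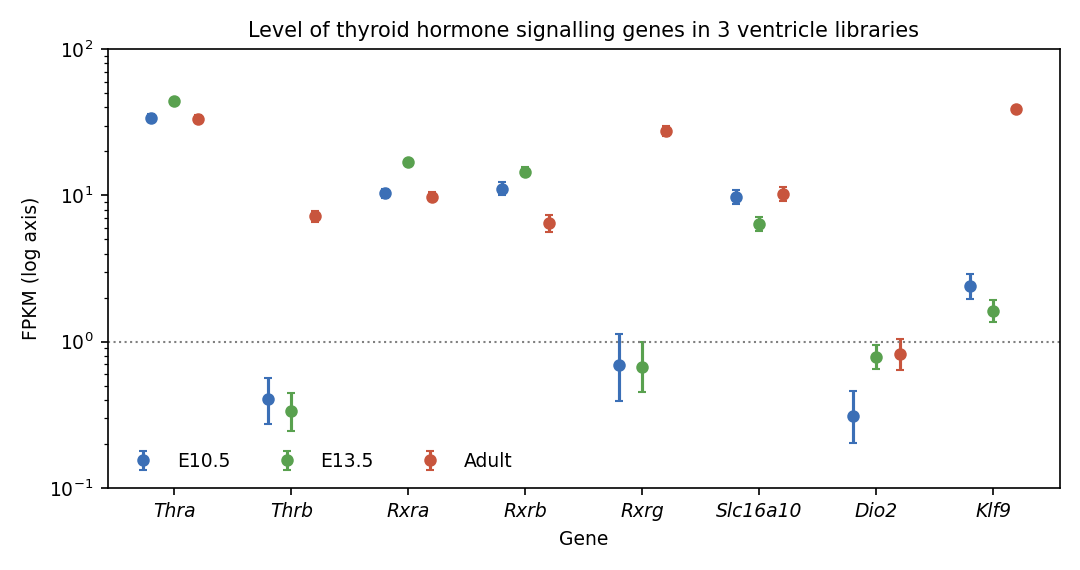
Level of 8 of the 9 genes in each library in FPKM on a log axis, with 95% counting intervals as bars and a dotted line at 1 FPKM (Dio1, listed at 0, is not drawn). Thrb, Rxrg and Klf9 lie far higher in the adult library than in both embryonic ones, at 7.19, 27.7 and 38.7 FPKM.

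The sequences below show where hormone response hexamers lie near genes of this pathway, whether or not the gene differed between stages. They were read from the GRCm38.p6 genome (the assembly of mm10, on which the coordinates of the files lie), all on the + strand, with capitals marking the match. The first is the match to a direct repeat, AGGTNA and AGGTCA with a spacer of 4 bases between them, searched on both strands. It lies at chr19:23137463-23137478, 3763 bases before the RefSeq start of Klf9.

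Klf9 upstream, chr19:23137441-23137500: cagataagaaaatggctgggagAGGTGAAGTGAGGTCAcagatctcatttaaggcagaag

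Klf9 was the 1 gene of the 9 with this pattern within 10000 bases upstream of its start, and 245 of 20117 mRNA loci (1.22%) have it. This pattern was picked after the sequence upstream of Klf9 had been seen, so the match there was fixed in advance. The low share over all loci therefore carries no weight for Klf9. The other sequences are the 250 bases before a start of Rxrg, of Thrb and of Rxra in RefSeq, shown because these are the only windows of the members that hold the hexamer AGGTCA on either strand. Rxra, unlike Rxrg and Thrb, was not past the fold between any stages.

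Rxrg, downstream start, chr1:167618015-167618264: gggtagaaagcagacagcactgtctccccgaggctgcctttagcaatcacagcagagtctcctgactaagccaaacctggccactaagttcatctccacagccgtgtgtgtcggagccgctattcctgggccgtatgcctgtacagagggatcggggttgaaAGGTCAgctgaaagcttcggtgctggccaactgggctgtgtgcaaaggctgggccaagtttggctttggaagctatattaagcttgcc

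Thrb, upstream start, chr14:17660710-17660959: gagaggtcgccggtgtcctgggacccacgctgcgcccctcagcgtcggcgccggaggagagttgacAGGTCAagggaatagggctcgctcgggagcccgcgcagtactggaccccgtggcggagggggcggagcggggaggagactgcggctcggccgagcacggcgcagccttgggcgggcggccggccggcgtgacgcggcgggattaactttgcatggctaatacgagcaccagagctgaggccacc

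Rxra, downstream start, chr2:27709042-27709291: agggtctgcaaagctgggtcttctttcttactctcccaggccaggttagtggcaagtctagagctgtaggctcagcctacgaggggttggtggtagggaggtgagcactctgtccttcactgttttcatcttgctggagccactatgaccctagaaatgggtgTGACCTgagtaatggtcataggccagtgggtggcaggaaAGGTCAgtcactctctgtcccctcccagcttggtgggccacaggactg

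The hexamer begins 88 bases before the Rxrg start and 184 bases before the Thrb start, and the Rxra window holds it at 48 and, on the other strand (TGACCT), at 87 bases before the start. The other windows of Rxrg, Thrb and Rxra and the windows of Klf9, Rxrb, Slc16a10, Dio1 and Dio2 hold none. RefSeq windows of 300 bases around a start were at hand for 8 of the 9 genes, with no entry for Thra, and 3 of their 12 windows hold AGGTCA on either strand. Of all 32851 windows of the same length, 16.3% hold it, so a match is common and is only a description. The windows also differ in base composition. The Thrb window holds 37 CpG and the Klf9 window 28, the Rxrg window shown holds 9, those of Dio1 and Dio2 hold 3 each, and the median of all windows is 7.

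Thra encodes the receptor that is usually the main one in heart muscle. Its locus lies at chr11:98740651-98768334 on the + strand. Thra was at 33.8 FPKM (31.8 to 35.97) in the E10.5 library, 44.0 FPKM (42.2 to 45.8) in the E13.5 library and 33.5 FPKM (31.5 to 35.6) in the adult library. It was the highest of the 9 genes in both embryonic libraries and came after Klf9 in the adult. The difference from E10.5 to E13.5 was 0.37 and that between E13.5 and adulthood was -0.38. Neither was past the fold, and the latter turned to 0.17 when libraries were scaled by the median of ratios. The former was 0.06 after scaling without globin and mitochondrial genes.

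Thrb encodes the other receptor, which is known for roles in liver, the inner ear and feedback in the pituitary. Its locus spans chr14:17659217-18039679 on the + strand. Thrb was at 0.403 FPKM (0.275 to 0.560) in the E10.5 library, 0.335 FPKM (0.245 to 0.443) in the E13.5 library and 7.19 FPKM (6.63 to 7.80) in the adult library. The embryonic libraries overlapped in their counting intervals and the adult stood far above both. The adult level was 17.8-fold (12.7 to 26.4) that of E10.5 and 21.5-fold (16.03 to 29.7) that of E13.5. These embryonic values rest on about 33 and 47 fragments. On the log2(FPKM + 1) scale the difference was 2.55 between E10.5 and adulthood.

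Within a library the share of a gene in its family does not depend on the scaling between libraries. A shift with transcript length stays in it. From E10.5 to E13.5 the median difference was 0.27 for loci of a length like Thra and -0.22 for those like Thrb. Thrb made up 1.18% of the summed FPKM of Thra and Thrb in the E10.5 library, 0.755% in the E13.5 library and 17.7% in the adult library. Thra was 83.9 times as high as Thrb in the E10.5 library, 131 times in the E13.5 library and 4.66 times in the adult library. The receptor pool thus held mostly Thra RNA at each stage, with a larger part of Thrb in the adult. The summed level of both genes was 34.3, 44.3 and 40.7 FPKM in turn, which unlike the share depends on the scaling between libraries.

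The Thra locus holds 6 transcripts, of which 5 were assembled from reads and 1 came from the reference, with 3 different starts. In 4 of the assembled transcripts the last exon lies past the end of the reference form and overlaps exons of Nr1d1 on the other strand by 61 to 77 nt. As background, Thra is known to give a splice form that cannot bind T3 and whose last exon overlaps Nr1d1, which encodes the clock repressor REV-ERB alpha. The deposited FPKM is a value per locus and does not separate these forms. Nr1d1, at chr11:98767928-98775317 on the - strand, was at 2.71 FPKM in the E10.5 library, 0.831 in the E13.5 library and 18.4 in the adult library. Unlike Thra, Nr1d1 was far higher in the adult, by 6.80-fold (5.51 to 8.51) over E10.5, and the ratio of Nr1d1 to Thra was 0.0801, 0.0189 and 0.550 over these libraries. Nr1d1 RNA varies with the time of day, and the time of collection is not given in the sources used here. The library kit keeps the strand, and unspliced transcripts were assembled with a strand, also where they overlap on opposite strands upstream of Klf9. Whether the FPKM values used the strand is not given, so reads in the overlap may be split between both loci.

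**Figure D2:**
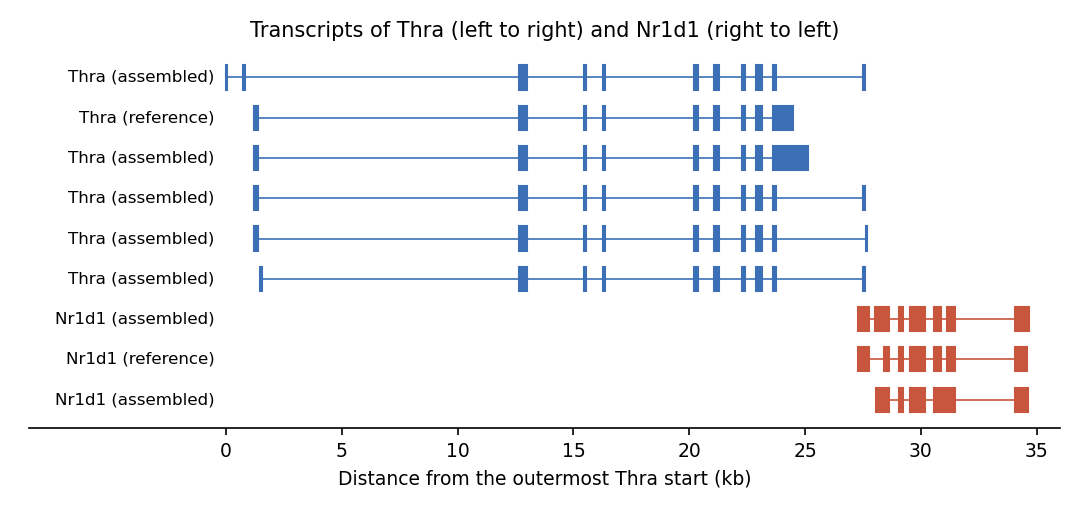
Transcripts of the Thra locus (blue, 6) and of Nr1d1 (red, 3) with exons as boxes, against distance in kb from the outermost Thra start. The last exon of 4 assembled Thra transcripts falls on exons of Nr1d1, which runs in the opposite direction.

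The Thrb locus holds 7 transcripts, 5 of them assembled, with 6 different starts. All 5 assembled transcripts start far upstream of the reference form that begins at chr14:17981644, and that downstream start is known as the one of the pituitary and retina form. The per-locus value again does not separate the forms.

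The RXR genes encode the partners that thyroid hormone receptors and many other nuclear receptors share. Rxra (chr2:27677201-27763319, + strand), which is needed for growth of the embryonic ventricle wall, was at 10.4 FPKM in the E10.5 library, 16.8 in the E13.5 library and 9.80 in the adult library. Rxrb (chr17:34031812-34038403, + strand), which is expressed in most tissues, was at 11.2 FPKM (10.04 to 12.4) in the E10.5 library, 14.6 FPKM (13.6 to 15.6) in the E13.5 library and 6.47 FPKM (5.62 to 7.40) in the adult library. Rxrg (chr1:167598362-167639623, + strand), a form known from skeletal and heart muscle and parts of the brain, was at 0.691 FPKM (0.396 to 1.12) in the E10.5 library, 0.676 FPKM (0.451 to 0.996) in the E13.5 library and 27.7 FPKM (25.6 to 29.9) in the adult library. In the embryo Rxra and Rxrb were near each other and Rxrg was below 1 FPKM, and in the adult Rxrg was the highest of these genes and Rxrb the lowest.

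Rxrg in the adult was 40.1-fold (24.4 to 70.4) the level of E10.5 and 41.0-fold (27.5 to 61.8) that of E13.5. The difference of 4.09 between E10.5 and adulthood was the greatest among the 9 genes, and 67 of 12569 mRNA loci had a difference as high. Rxrb fell by 1.06 between E13.5 and adulthood, a 2.25-fold (1.93 to 2.64) lower level. Its call rests on the scaling, since the difference was -0.55 after scaling by the median of ratios and -0.76 after scaling without globin and mitochondrial genes. Rxra differed by 0.65 from E10.5 to E13.5 and by -0.72 between E13.5 and adulthood, short of the fold both times.

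The make-up of the RXR pool differed between stages. Rxrg made up 3.11% of the summed FPKM of these genes in the E10.5 library, 2.11% in the E13.5 library and 63.0% in the adult library. Rxra made up 46.7%, 52.5% and 22.3%, and Rxrb 50.2%, 45.4% and 14.7%. Their summed level was 22.2, 32.1 and 44.0 FPKM, which unlike the shares depends on the scaling between libraries. Divided by the summed level of Thra and Thrb it was 0.649, 0.723 and 1.08. The Rxrg locus has 3 transcripts, of which the 1 assembled from reads has 2 exons, and the deposited value does not say which start was in use. The first exon region of Rxrb overlaps the locus of H2-Ke6 and Slc39a7 on the other strand, whose start lies 232 bp away and whose level was 52.3, 59.3 and 55.4 FPKM.

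**Figure D3:**
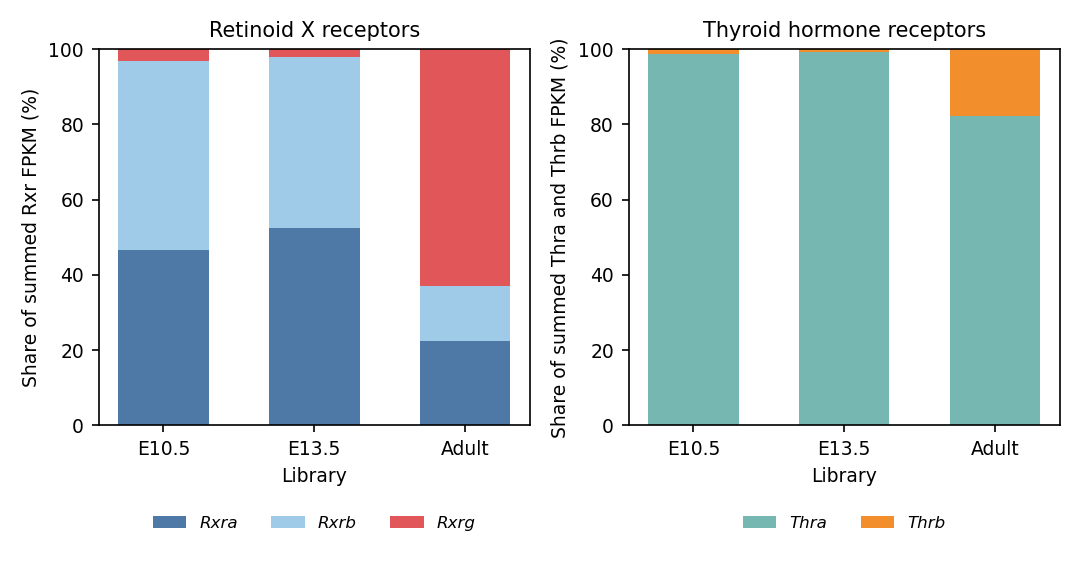
Share of each RXR gene in their summed FPKM (left) and of Thra and Thrb in theirs (right), in percent, for each library. Rxrg goes from 3.11% at E10.5 to 63.0% in the adult, and Thrb from 1.18% to 17.7%.

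Dio2, the type 2 deiodinase that makes T3 inside cells, was at 0.312 FPKM (0.202 to 0.460) in the E10.5 library, 0.786 FPKM (0.648 to 0.953) in the E13.5 library and 0.827 FPKM (0.636 to 1.05) in the adult library. The 2 later libraries overlapped in their intervals and the first lay below both, by 2.65-fold (1.64 to 4.37) between E10.5 and adulthood. On the log2(FPKM + 1) scale this difference was 0.48, and with a pseudocount of 0.1 it was 1.17. All 3 values were under 1 FPKM, about 25 fragments lay behind the lowest, and the locus (chr12:90724552-90738438, - strand) did not reach the limit of 1 FPKM set for the counts over all loci. Dio1, the type 1 deiodinase best known from liver and kidney, has its locus at chr4:107291465-107307143 on the - strand and was listed at 0 in all libraries. The other locus that carries its name is an unspliced transcript of 1208 nt on the opposite strand (chr4:107305592-107306799), assembled from reads, which was listed at 0 at E10.5 and had 0.132 FPKM at E13.5 and 0.442 in the adult. That transcript is no Dio1 mRNA. An exact 0 in this table can be a failed estimate, since the locus that joins the heart myosin genes Myh6 and Myh7 was at 1029 and 1329 FPKM in the embryo and is listed at 0 in the adult. Dio3, the inactivating deiodinase, was at 0.0417 and 0.111 FPKM in the embryo and is listed at 0 in the adult. Deiodinase values above 0 were thus all under 1 FPKM, and no level can be read from those listed at 0.

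Slc16a10 encodes MCT10, a carrier of aromatic amino acids and thyroid hormones. At chr10:40033502-40142254 on the - strand, it was at 9.80 FPKM (8.75 to 11.0) in the E10.5 library, 6.39 FPKM (5.74 to 7.10) in the E13.5 library and 10.3 FPKM (9.23 to 11.5) in the adult library. E13.5 was the lowest and the outer stages did not differ beyond their counting intervals. The differences were -0.55 and 0.61, short of the fold, and the latter was 1.12 after scaling by the median of ratios and 1.23 relative to loci of like length. Length here is that of the shortest matched transcript, 2313 nt, and the locus also has a reference form of 5394 nt. The comparison at the longer length was not made.

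Klf9 encodes a zinc finger factor of the Krüppel-like family whose gene is known to be induced directly by T3 and also by glucocorticoids. Its locus is chr19:23140948-23171066 on the + strand. Klf9 was at 2.39 FPKM (1.97 to 2.90) in the E10.5 library, 1.62 FPKM (1.36 to 1.94) in the E13.5 library and 38.7 FPKM (36.9 to 40.6) in the adult library. The adult was well above both embryonic libraries and E13.5 was the lowest. The adult level was 16.2-fold (13.3 to 19.8) that of E10.5 and 23.9-fold (19.8 to 28.8) that of E13.5. Between E10.5 and adulthood 139 of 12569 mRNA loci had a difference as high as the 3.55 of Klf9. Klf9 was 0.0706 times as high as Thra in the E10.5 library, 0.0369 times in the E13.5 library and 1.16 times in the adult library, where it led all 9 genes.

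Unnamed unspliced transcripts were assembled upstream of Klf9 and Thrb, and they too were highest in the adult. Loci with no RefSeq match within 10000 bp upstream of a member were counted on either strand, a search chosen after values had been seen. There were 5 upstream of Klf9, 4 upstream of Thrb and 1 upstream of Rxrb, and none for the other genes. The share of all mRNA loci with such upstream loci was not counted, nor how often these are highest in the adult. These counts are therefore only a description. The nearest to Klf9 lies on the opposite strand at chr19:23139315-23140930, 18 bp from the assembled Klf9 start, and was at 0.278 FPKM in the E10.5 library, 0.103 in the E13.5 library and 2.74 in the adult library. The next, at chr19:23137689-23138914 on the same opposite strand, was at 0.234, 0.0318 and 3.25 FPKM, and its near end lies 211 bases from the direct repeat shown above. All 4 loci upstream of Thrb lie on the opposite strand between 5074 and 9726 bp from its reference start, listed at 0 at E10.5 and between 1.15 and 6.48 FPKM in the adult. The locus upstream of Rxrb was at 0, 0.664 and 0.518 FPKM. Low unspliced loci of this kind rest on few fragments in the embryo, and the short ones near 1 FPKM do so in the adult too.

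Counted over all 9 genes, none was past the fold in either direction from E10.5 to E13.5, where 5.89% of 12569 mRNA loci were higher and 4.85% lower. Between E13.5 and adulthood 3 were higher (Thrb, Rxrg and Klf9), beside 13.0% of loci, and 1 was lower (Rxrb), beside 32.1%. Between E10.5 and adulthood the same 3 genes were higher, beside 14.8% of loci, and none was lower, beside 27.3%. These mRNA loci match a RefSeq coding transcript and reach 1 FPKM in at least 1 library. Of the 9 genes 7 reach it, and Thrb and Rxrg do so through the adult library only.

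The order of levels was Thra, Rxrb, Rxra, Slc16a10, Klf9, Rxrg, Thrb and Dio2 at E10.5. There Rxrb overlapped with Rxra in their counting intervals, as did Rxra with Slc16a10, Rxrg with Thrb, and Thrb with Dio2. At E13.5 it was Thra, Rxra, Rxrb, Slc16a10, Klf9, Dio2, Rxrg and Thrb, and only Dio2 and Rxrg overlapped as neighbours. The adult order was Klf9, Thra, Rxrg, Slc16a10, Rxra, Thrb, Rxrb and Dio2, with overlaps between Slc16a10 and Rxra and between Thrb and Rxrb. Klf9 was thus at rank 5 in both embryonic libraries and at rank 1 in the adult. Rxrg was at ranks 6 and 7 in the embryo and at rank 3 in the adult.

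The libraries as deposited are shifted against each other. The median difference of the mRNA loci was 0.17 from E10.5 to E13.5, -0.50 between E13.5 and adulthood and -0.40 between E10.5 and adulthood, so that a gene with no difference lies above the middle in the adult. Relative to that median, Thra differed by 0.38 between E10.5 and adulthood, Rxra by 0.33, Slc16a10 by 0.46 and Rxrb by -0.30. Scaling by the median of ratios brought these medians to 0.04, -0.03 and -0.06. The share of higher loci among those past the fold then went from 28.9% to 52.4% between E13.5 and adulthood, from 35.1% to 52.1% between E10.5 and adulthood and from 54.9% to 40.0% between E10.5 and E13.5. Without globin and mitochondrial genes it was 28.0% between E10.5 and E13.5 and 42.1% between E13.5 and adulthood. Thrb, Rxrg and Klf9 stayed past the fold and higher in the adult under both scalings. The E13.5 library also differed with transcript length, the median from E10.5 being 0.48 for loci under 1500 nt and -0.33 for those of 5000 nt or more. Thrb, Rxra and Dio2 are among the long ones.

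**Figure D4:**
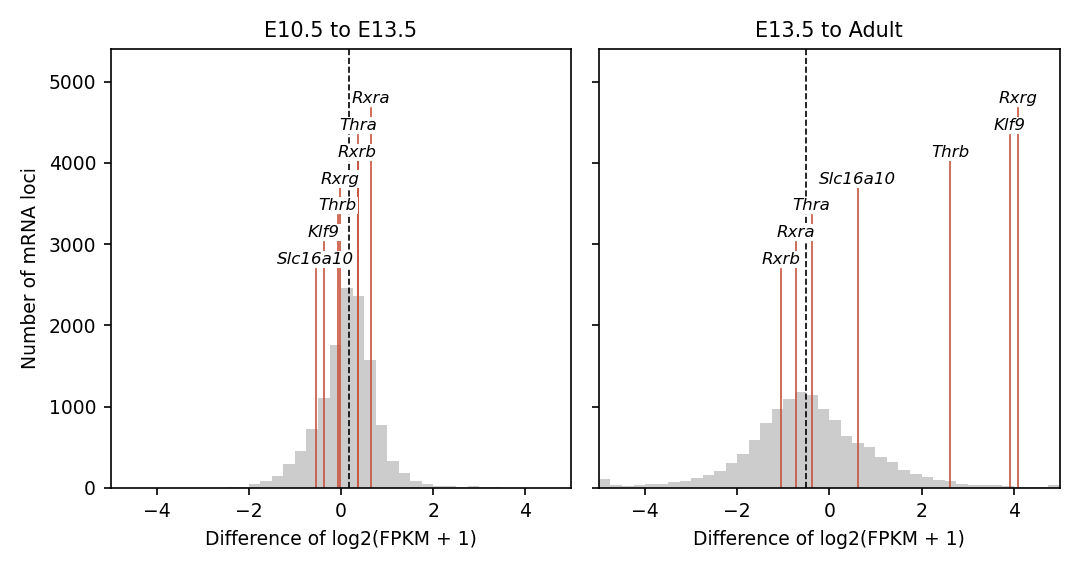
Distribution of the difference of log2(FPKM + 1) over 12569 mRNA loci (grey bars, counts per bin, with differences beyond the axis placed in the end bins), with 7 of the genes as red lines and the median of all loci as a dashed line. From E10.5 to E13.5 all 7 lie within 1 of 0, and between E13.5 and adulthood Thrb, Klf9 and Rxrg lie at 2.62, 3.92 and 4.10.

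The genes with the most similar pattern over the 3 libraries were taken as those nearest in both differences between stages that follow each other. For Klf9 they were Ucp3, a mitochondrial carrier at 0.361, 0.0543 and 14.1 FPKM, Thrsp, a regulator of lipid synthesis at 0.471, 0.0971 and 14.9 FPKM, and the integrin gene Itgb6. For Rxrg they were Lpin1, which encodes a phosphatidate phosphatase (2.84, 2.74 and 64.1 FPKM), Acss1, which encodes a mitochondrial acetyl-CoA synthetase (3.95, 3.99 and 87.1 FPKM), and Fcgr2b. For Thrb they were Olfr558, Osbp2 and 3110057O12Rik. Likeness over 3 libraries is a weak criterion.

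Genes around the pathway were described by lists, in which 75 genes other than the 9 were measured at a locus of their own and 69 of them reached 1 FPKM. From E10.5 to E13.5 3 of these were higher past the fold and 7 lower, beside 5.89% and 4.85% of all mRNA loci. Between E13.5 and adulthood 20 were higher and 10 lower, beside 13.0% and 32.1%, and between E10.5 and adulthood 22 and 11, beside 14.8% and 27.3%. The lists were drawn up with results of these data known, so these counts are descriptions.

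Between E10.5 and adulthood 1 transporter of thyroid hormone was higher past the fold and 1 lower, beside 14.8% and 27.3% of all mRNA loci. Those loci reach 1 FPKM in at least 1 library, as do 5 of the 8 transporters. Of 8 listed, Slc16a10 among them, Slc7a8, which encodes the amino acid carrier LAT2, was higher in the adult (0.454, 0.899 and 4.92 FPKM) and Slc7a5, which encodes LAT1, was lower (8.10, 5.93 and 0.971 FPKM). Their shared partner Slc3a2 was at 20.0, 21.3 and 15.8 FPKM, and Slco1c1, Slco1a4 and Slco1a5 stayed under 1 FPKM. Slc16a10 was thus the highest in the adult among the carriers named here, leaving out the partner chain Slc3a2. Of the 6 listed genes for deiodinases and for T3 binding in the cell none was past the fold between any stages, but only 3 reached 1 FPKM. Crym, which encodes a T3-binding protein of the cytosol, was at 0.115, 1.13 and 0.0886 FPKM. Its differences, 0.93 from E10.5 to E13.5 and -0.97 between E13.5 and adulthood, were just short of the fold. Secisbp2 and Sepsecs, needed to make selenoproteins such as deiodinases, were between 5.78 and 8.85 FPKM.

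Among the genes that act with the receptors, 1 of 6 corepressor genes was past the fold between E10.5 and adulthood. This was Tbl1x, part of the NCoR complex, at 44.8, 27.2 and 13.97 FPKM. Of 10 coactivator genes Kat2b, a histone acetyltransferase, was higher (12.6, 15.4 and 35.9 FPKM), and the arginine methyltransferase genes Prmt1 (110, 67.9 and 17.0 FPKM) and Carm1 (22.8, 21.5 and 7.34 FPKM) were lower. The median differences were -0.34 and -0.11, beside -0.40 for all mRNA loci. In this comparison 14.8% of all mRNA loci were higher past the fold and 27.3% lower. Of 10 measured genes for other receptors that pair with RXR, the fatty acid receptor genes Ppara (1.70, 0.453 and 16.3 FPKM) and Pparg (0.975, 1.5004 and 11.1 FPKM) and the retinoic acid receptor gene Rarg were higher in the adult, and Rara was lower (7.86, 6.14 and 2.09 FPKM), with a median of -0.03.

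Genes known to be induced by thyroid hormone in heart, muscle or liver were higher in the adult for the most part. Of 14 measured alone, 11 were higher past the fold between E10.5 and adulthood and 1 was lower, with a median difference of 1.67, beside 14.8% higher, 27.3% lower and a median of -0.40 over all mRNA loci. This list was drawn up with results of these data known. Between E13.5 and adulthood the counts were again 11 and 1, with a median of 1.79, beside 13.0% and 32.1% of all mRNA loci and a median of -0.50. From E10.5 to E13.5 they were 1 and 1, with a median of -0.18. The largest differences were those of Slc2a4, the insulin-responsive glucose carrier GLUT4 (8.00, 9.58 and 104 FPKM), and of Ucp3 and Thrsp, whose levels are given above. The lower one was Hcn4, a pacemaker channel gene at 4.55, 2.41 and 0.511 FPKM. Of 3 measured genes known to be repressed by the hormone, Kcne1, a potassium channel subunit (4.84, 12.8 and 0.868 FPKM), and Slc8a1, the sodium-calcium exchanger (231, 102 and 78.7 FPKM), were lower. Pln, the brake on the calcium pump of the reticulum, was higher instead, at 505, 745 and 4551 FPKM. The locus of Myh6 and Myh7 joins an induced and a repressed gene and was left out.

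Klf9 was set beside its family and beside genes that respond to glucocorticoids. Of 13 other Krüppel-like genes, Klf15 (1.60, 2.57 and 10.3 FPKM) was higher past the fold between E10.5 and adulthood, and Klf8 (5.22, 1.72 and 0.372 FPKM) and Klf16 (5.65, 5.32 and 0.982 FPKM) were lower, with a median of -0.12. Klf15 differed by 2.12 where Klf9 differed by 3.55. Of 7 glucocorticoid-responsive genes 3 were higher, namely Zbtb16 (0.477, 0.198 and 11.1 FPKM), Mt2 (13.9, 12.5 and 110 FPKM) and Sgk1 (11.0, 13.6 and 24.3 FPKM), and Fkbp5 was lower (7.10, 4.93 and 3.01 FPKM). The median difference of these 7 genes was 0.83, beside -0.40 for all mRNA loci. The counts of both lists stand beside 14.8% of all mRNA loci higher past the fold and 27.3% lower.

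**Figure D5:**
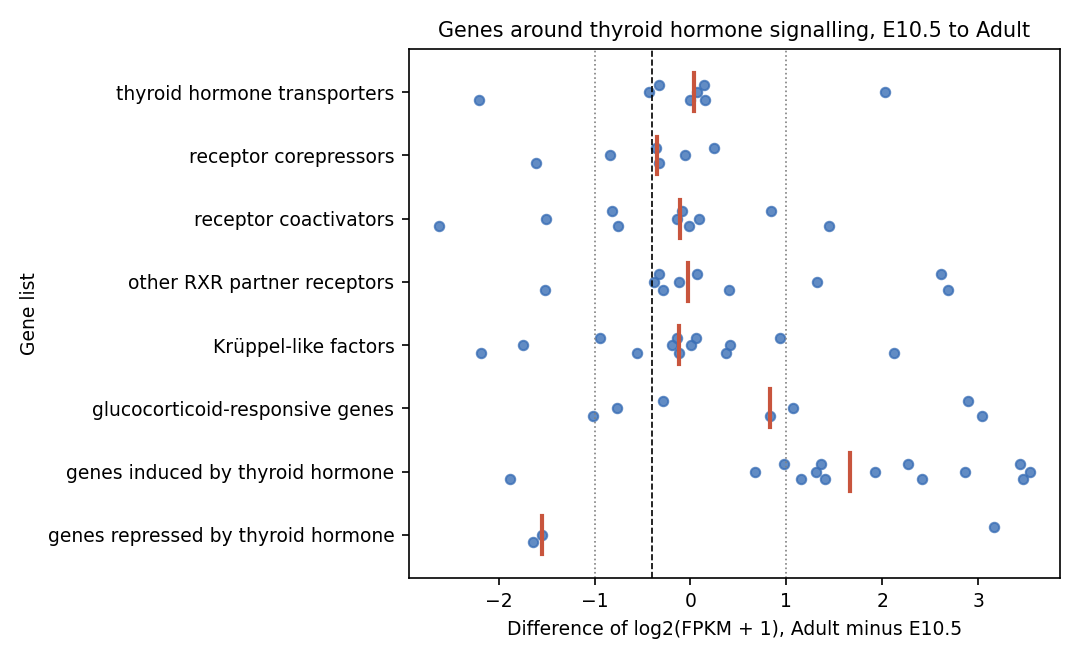
Difference of log2(FPKM + 1) between E10.5 and adulthood for genes of 8 lists around thyroid hormone signalling (blue points, 1 per gene measured at a locus of its own), with list medians in red, the limits of the fold dotted and the median of all mRNA loci (-0.40) dashed. Genes induced by thyroid hormone lie furthest to the right as a list, with a median of 1.67, and glucocorticoid-responsive genes come next at 0.83. The medians of transporters, coactivators and corepressors are 0.03, -0.11 and -0.34. The lists were drawn up with results of these data known.

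The levels of cell type markers differed between the libraries. In bulk RNA a lower level can mean fewer cells of a type or less RNA per cell, which cannot be told apart. Markers of cardiomyocytes were present throughout, with a summed level of 3335 FPKM in the E10.5 library, 6266 in the E13.5 library and 7994 in the adult library, and 2 of 5 were past the fold upward between E10.5 and adulthood. Erythroid markers summed to 5720, 15538 and 25.0 FPKM, with 4 of 5 lower. In the embryo this sum came nearly all from the globin genes Hbb-y (4356, 15112 and 2.87 FPKM) and Hbb-bh1 (1314, 366 and 0.0842 FPKM). Alas2, the marker not past the fold, was at 18.2, 34.1 and 19.6 FPKM. Atrial markers, which the embryonic ventricle also expresses, summed to 6382, 6766 and 40.9 FPKM, with 4 of 4 lower. Mural markers summed to 23.8, 66.4 and 295 FPKM with 3 of 5 higher, macrophage markers to 6.38, 51.8 and 149 FPKM with 5 of 5 higher, and fibroblast markers to 96.6, 220 and 403 FPKM with 2 of 5 higher and 1 lower. The fibroblast sum in the adult came mostly from Dcn, at 49.5, 75.9 and 351 FPKM, and the other 4 fibroblast markers were below their E13.5 level in the adult. Endothelial markers summed to 260, 185 and 265 FPKM with none of 5 past the fold between E10.5 and adulthood. Adipocyte markers summed to 1.33, 1.37 and 28.5 FPKM with 1 of 5 higher, the adult sum being nearly all Cidea (0.974, 1.12 and 28.2 FPKM) and Plin1 being listed at 0 in every library. Hepatocyte markers summed to 6.53, 17.2 and 0.185 FPKM, with 1 of 5 lower and Alb listed at 0 in the adult, and neuronal markers to 9.96, 15.9 and 5.42 FPKM, with 1 of 5 higher and 1 lower. The summed levels of the cardiomyocyte, fibroblast, mural, macrophage and adipocyte lists were highest in the adult, as were Thrb, Rxrg and Klf9. The endothelial sum in the adult was close to that of E10.5, with 3 of 5 markers below their E10.5 level. Between E10.5 and adulthood 14.8% of all mRNA loci were higher past the fold and 27.3% lower. The part of these cell types in the differences of the thyroid hormone genes was not tested.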

How the data were processed

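Total RNA of ventricle was sequenced from libraries of a stranded kit. The authors mapped reads to mm10 with TopHat2 (the processing notes also list Bowtie) and assembled them with Cufflinks. They deposited FPKM values per merged locus for 3 libraries, and an annotation of the merged transcripts. Versions are not given in the sources used here. No counts were used, so depth was approximated from the lowest step of the values, at which 1 FPKM over 1 kb stands for about 13.8, 23.5 and 13.8 fragments in the libraries of E10.5, E13.5 and adult ventricle. The FPKM columns sum to 601115, 808971 and 443471.

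Differences were taken on log2(FPKM + 1) with Python 3.11.15, numpy 2.4.6, pandas 2.3.3 and scipy 1.17.1, with no test, after checks on simulated data. Low genes are understated on this scale. Gene levels used the locus with a transcript matched to RefSeq, of which 406 mRNA loci join more than 1 gene and were left out of lists. Intervals are Poisson for levels and exact binomial for folds. The length of a locus, for fragment numbers and for loci of like length, was that of its shortest matched transcript. Alternatives were a pseudocount of 0.1, scaling by the median of ratios or without globin and mitochondrial genes, a limit of 2 on the log2 scale and no filter on low values, and, added after seeing the data, the subtraction of the median of loci of like length. Named genes were the members, Nr1d1, all transporter and deiodinase genes, the 3 with the largest difference past the fold between E10.5 and adulthood in each other list, the 3 nearest in pattern, and opposite-strand neighbours. Hcn4, Rarg, Fkbp5, Dcn, Cidea, Hbb-y, Hbb-bh1 and Alas2 were named outside this rule, after their values were seen. Of the transporter list, 1 gene is counted but not reported here. Members and lists were chosen with earlier results of these data known. Promoter sequences are those of RefSeq on GRCm38.p6, and 97.6% of 4966 first introns of the annotation had GT and AG ends on that genome. Protein sequences were not used here.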

Additional observations from a re-analysis of the deposited data

How the results depend on the processing

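The 3 genes higher in the adult stayed past the fold under every alternative run, and none of the 9 changed sides of 0 while past the fold. The 1 lower member between E13.5 and adulthood, Rxrb, became 0 under both scalings, at a limit of 2 and with the like-length median subtracted. The 3 higher members of the same comparison became 4, with Slc16a10, under the median of ratios and with the like-length median subtracted. For Slc16a10 the latter rests on the length of its shortest matched transcript. For the pathway lists, from E10.5 to E13.5, the count of 3 higher genes became 5 at a pseudocount of 0.1, 0 without globin and mitochondrial genes and 0 at a limit of 2, and the count of 7 lower became 14, 15 and 0 in the same order and 11 with the median of ratios. Between E13.5 and adulthood the 20 higher became 36 and the 10 lower became 4 with the median of ratios, and 13 and 1 at a limit of 2. Between E10.5 and adulthood the limit of 2 left 14 of 22 higher and 3 of 11 lower. Over all mRNA loci the limit of 2 left 554 of 1637 higher and 1242 of 4029 lower between E13.5 and adulthood, 703 of 1856 and 1018 of 3430 between E10.5 and adulthood, and 107 of 740 and 31 of 609 from E10.5 to E13.5. From E10.5 to E13.5 the pseudocount of 0.1 gave 1276 higher and 948 lower loci, and scaling without globin and mitochondrial genes 422 and 1086. Between E13.5 and adulthood the median of ratios gave 2618 and 2380. The difference of Thrb between E10.5 and adulthood ranged from 2.62 to 3.86 and that of Rxrg from 4.16 to 5.14 over the alternatives, the larger values at the pseudocount of 0.1. No paired analysis was possible because there is 1 library per stage, and no library could be left out. Fragment numbers limit Thrb, Rxrg and Dio2 in the embryo.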
